A study of Homo sapiens with 18 samples.

Results

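Collagen chains are modified, folded and trimmed before they can form fibrils, and 10 genes for these steps were described here across all conditions of the series. They were taken by symbol from the 21411 genes of the count and CPM tables: the prolyl 4-hydroxylase subunits P4HA1, P4HA2 and P4HA3, the prolyl 3-hydroxylase P3H1, the lysyl hydroxylases PLOD1, PLOD2 and PLOD3, the collagen chaperone SERPINH1 (also known as HSP47), the procollagen C-proteinase BMP1 and its enhancer PCOLCE. All 10 had a row in both tables.

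The RNA came from MDA-MB-231 cells, an established triple-negative breast cancer line, grown as spheroids in 3D Matrigel and taken on day 7. The 6 conditions had 3 biological replicates each, which gave 18 libraries. Jag1WT is the parental line, with wild-type Jagged1, a ligand of the Notch receptors that is encoded by JAG1. Jag1KO cells were edited with CRISPR-Cas9 in JAG1 and are a mixture of 15 single-cell clones, whereas Jag1WT cells were not cloned from single cells here, so that editing and cloning cannot be told apart. Jag1KO + rescue cells are Jag1KO cells with a plasmid that expresses Jagged1 cDNA, and Jag1KO + ctrl cells carry the empty plasmid, both kept under G418, so that these 2 conditions share the knockout, the plasmid backbone and the drug. The siCtrl and siJag1 cells are Jag1WT cells transfected with a nontargeting siRNA or with siRNAs against Jagged1, and both therefore share the transfection. The design asks how the RNA of these genes differed with Jagged1 in 3 pairs: the knockout pair (Jag1WT against Jag1KO), the siRNA pair (siCtrl against siJag1), and the rescue pair, Jag1KO + rescue set against its empty-plasmid control. In 2 further comparisons JAG1 was not manipulated between the groups. These set siCtrl against Jag1WT, and the plasmid control against Jag1KO.

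Collagen is made in the endoplasmic reticulum, where prolyl 4-hydroxylases hydroxylate prolines, which keeps the triple helix stable at body temperature, and lysyl hydroxylases hydroxylate lysines that later carry sugars and cross-links. SERPINH1 binds the folded triple helix and accompanies it out of the endoplasmic reticulum. Outside the cell, BMP1 cuts off the C-propeptide of fibrillar procollagens, and PCOLCE speeds up this cut. In breast cancer these steps are known for their part in the deposition and stiffness of the matrix, and P4HA1, P4HA2, PLOD1 and PLOD2 are known targets of the hypoxia-inducible factor HIF-1.

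The libraries held between 10330581 and 18327890 reads counted on genes, and the levels below are the deposited CPM, which are the read counts of a gene relative to the library's total after the authors' TMM scaling of these totals. JAG1 itself had 513 ± 76.7 CPM (SD, n = 3 here and for each condition below) in Jag1WT, 157 ± 45.1 in Jag1KO, 612 ± 67.9 in Jag1KO + rescue, 131 ± 18.7 in Jag1KO + ctrl, 532 ± 92.4 in siCtrl and 167 ± 35.7 in siJag1. The JAG1 levels of the high and the low groups did not overlap in any of the 3 pairs. JAG1 passed edgeR's test, described below, in the knockout pair (log2 difference 1.71, FDR 0.0163) and in the rescue pair (2.22, FDR 0.0227) but not in the siRNA pair (1.68, FDR 0.111). VIM and CD44, which mark this mesenchymal line, reached at least 2184 and 396 CPM in every library. ESR1 was at 0 in 17 libraries, and CDH1 and PGR stayed at or below 1.16 and 1.77 CPM. ERBB2 and EPCAM, also chosen as markers low in this line, were not absent, with at least 32.5 and 5.18 CPM in every library. Of 11 marker genes of fibroblasts, endothelial cells and leukocytes, 9 had a row, and their summed level was between 6.07 and 20.5 CPM in all libraries. It was 6.07 to 13.5 CPM in Jag1KO, 11.9 to 20.5 in Jag1KO + ctrl and within 7.56 to 17.0 in the other 4 conditions. COL1A1 (2.66 to 10.0 CPM) and PECAM1 (0.954 to 15.1 CPM) made up most of it, PDGFRB had 0.130 to 1.35 CPM, PDGFRA at most 7 reads, and DCN, COL1A2, CDH5, LUM and PTPRC were at 0 in 15, 14, 14, 11 and 11 libraries. The part of these genes in the results below was not tested. Some libraries stood apart from their group in proliferation: the mean log2(CPM + 1) of 15 cell-cycle genes was 4.63 in Jag1KO + ctrl replicate 3 against 6.33 and 6.79 in the other two, 4.39 in Jag1KO replicate 1 against 5.90 and 6.16, and 6.65 in siJag1 replicate 2 against 4.49 and 4.63. Values without these libraries stand beside several of the differences that they moved.

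Per kilobase of transcript, 5 of the members formed the upper group, with means over the 18 libraries of 54.1 CPM per kb for SERPINH1, 53.5 for PLOD1, 50.8 for PLOD2, 46.6 for P4HA1 and 43.8 for PLOD3. Their SDs over the libraries were between 8.07 and 15.9 CPM per kb, so that neighbours in this order did not differ beyond their spread. P3H1 (19.2 ± 2.52) and P4HA2 (17.5 ± 3.83) came next and were also within each other's spread. BMP1 lay lower, at 5.42 ± 1.73 CPM per kb, and PCOLCE at 1.03 ± 0.488. P4HA3 had 0 reads in 14 libraries and at most 2 in the others, when 3 reads, the limit that a count of 0 allows, correspond to between 0.162 and 0.287 CPM. P4HA1 and P4HA2 were thus the prolyl 4-hydroxylase α subunits with RNA detectable at this depth, and P4HA3 is given no fold change.

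**Figure D1:**
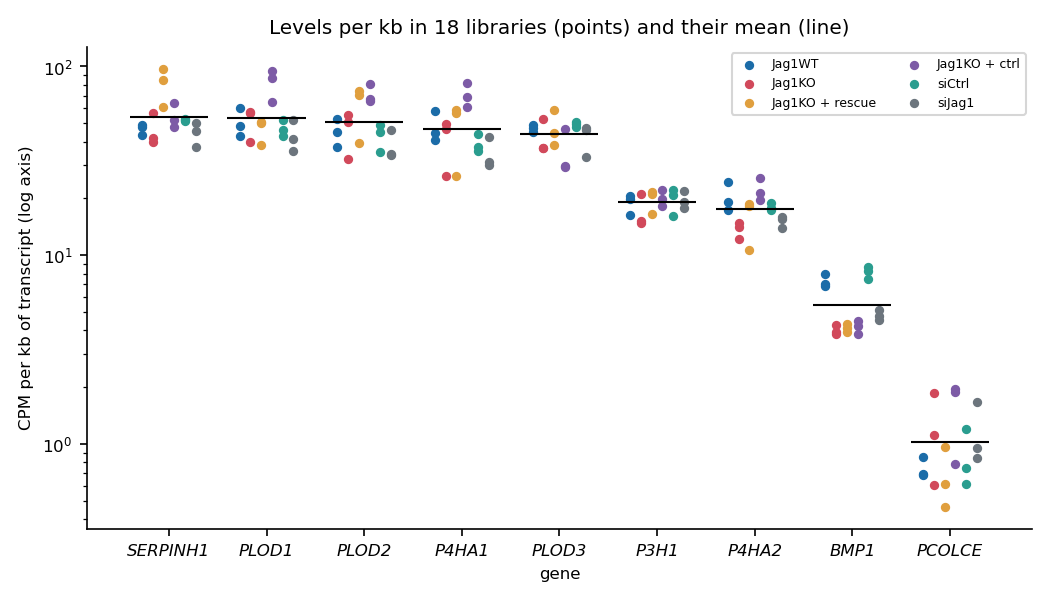
Levels of 9 members in CPM per kilobase of transcript on a log axis, with 1 point per library, colored by condition, and the mean of the 18 libraries as a line. SERPINH1, PLOD1, PLOD2, P4HA1 and PLOD3 share a range, P3H1 and P4HA2 lie below them, and BMP1 and PCOLCE are lowest.

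In edgeR's test BMP1 was the 1 member that differed beyond the threshold, and it did so in the knockout pair only. The gene lies on the plus strand of chromosome 8 (hg38, 22165140 to 22212326, GENCODE release 44) and encodes the enzyme that trims procollagen. In Jag1WT its levels were 35.6, 34.7 and 40.3 CPM, in Jag1KO 21.7, 19.8 and 19.4 CPM. Every Jag1WT library was above every Jag1KO library. The log2 difference was 0.86 (SE 0.128), a 1.81-fold higher level (95% interval 1.48 to 2.22), with an FDR of 0.0322 in edgeR's quasi-likelihood test across all genes tested. A gene was called at an FDR below 0.05 and a fold change above 1.5, and of the 12928 genes tested in this comparison 0.704% were called, or 0.41% when only those higher in Jag1WT are counted. BMP1 was the 1 member called among the 9 that passed the filter on low levels. Since this is RNA of whole cultures, fewer cells that express a gene and less of its RNA per cell cannot be told apart.

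The size of this difference moved little when libraries were left out, from 0.78 without Jag1WT replicate 3 to 0.90 without Jag1KO replicate 1, but the call did not hold in 5 of these 6 fits. The FDR was 0.00597 without Jag1KO replicate 1, in a fit that called 7.29% of all genes. It rose to at most 0.241 when any other single library was left out. With the full set, the call held in each of the other 6 settings tried (DESeq2, limma, another normalization, no filter, a replicate block and a fit of all 18 libraries).

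In the siRNA pair BMP1 had 43.8, 41.5 and 37.7 CPM in siCtrl and 25.9, 24.1 and 22.9 CPM in siJag1. Again the groups did not overlap, and the 3 siCtrl levels were in the range of Jag1WT or above it. The log2 difference was 0.76 (SE 0.119), or 1.70-fold (95% interval 1.40 to 2.05). It did not pass the threshold of this comparison, with an FDR of 0.268 in edgeR, in which 2 of 12823 genes (0.0156%) were called, or 4 with the replicate number as a block. DESeq2 and the fit of all 18 libraries gave an FDR of 0.000153 and 0.0105 for BMP1. With limma, another normalization, no filter or the replicate block, 0 members were called. With the block, the BMP1 difference was 0.76 (FDR 0.113), and the FDRs of the other members tested were between 0.58 and 0.983. When 1 library was left out, the BMP1 difference was between 0.70 and 0.82, and its FDR between 0.118 and 0.999. The difference between the siRNA pair and the knockout pair in the BMP1 fold change was 0.10 on the log2 scale (95% interval -0.23 to 0.43, FDR 0.999), in a test that 0.109% of genes passed.

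Jagged1 cDNA was not accompanied by a higher BMP1 level. Jag1KO + rescue had 21.9, 20.9 and 19.9 CPM and Jag1KO + ctrl 21.3, 22.8 and 19.4 CPM, and these overlapped with each other and with Jag1KO. The log2 difference was -0.03, and its 95% interval of -0.38 to 0.32 leaves out the differences measured in the other 2 pairs. Tested directly, the fold change of the knockout pair exceeded that of the rescue pair by 0.91 on the log2 scale (SE 0.176, FDR 0.0486), among 0.545% of 12850 genes that passed this test. The FDR rose above 0.05 with a replicate block (0.0662), with RLE size factors (0.0513), without the filter (0.0604), and in 11 of 12 fits that left out 1 library, where it reached 0.173. It was 0.00485 without Jag1KO + ctrl replicate 3, in a fit that 19.8% of all genes passed. The corresponding difference between the rescue and the siRNA pair was -0.81 (FDR 0.0684, in a test that 0.0937% of genes passed). Across the series the 9 libraries of Jag1KO origin thus held between 19.4 and 22.8 CPM of BMP1, the 3 siJag1 libraries between 22.9 and 25.9, and the 6 libraries of Jag1WT and siCtrl between 34.7 and 43.8.

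BMP1 also varied least among replicates. The pooled SD within conditions of its log2(CPM + 1) was 0.0956, whereas it was between 0.207 and 0.381 for the other 8 members above the filter. Its libraries held between 203 and 620 BMP1 reads. The genes most like BMP1 over the 18 libraries, among 9232 genes with a mean of at least 10 CPM, were COL18A1 (Pearson's r = 0.930, Spearman's ρ = 0.853), which encodes the basement membrane collagen XVIII, MELTF (r = 0.908, ρ = 0.827), a membrane-bound transferrin homolog, and COL6A3 (r = 0.898, ρ = 0.820), a chain of collagen VI. Without the 2 libraries farthest from the median of BMP1 these r were 0.908, 0.873 and 0.874. The 18 libraries share their 6 conditions, and the likeness was lower for deviations from the condition means, with r of 0.421, 0.287 and 0.357. COL18A1 had 50.0 ± 8.11 CPM in Jag1WT, 13.9 ± 1.60 in Jag1KO, 11.8 ± 1.56 in Jag1KO + rescue and 21.4 ± 7.26 in Jag1KO + ctrl. COL6A3 had 18.1 ± 6.26 CPM in Jag1KO + rescue and 3.52 ± 0.897 in Jag1KO + ctrl.

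**Figure D2:**
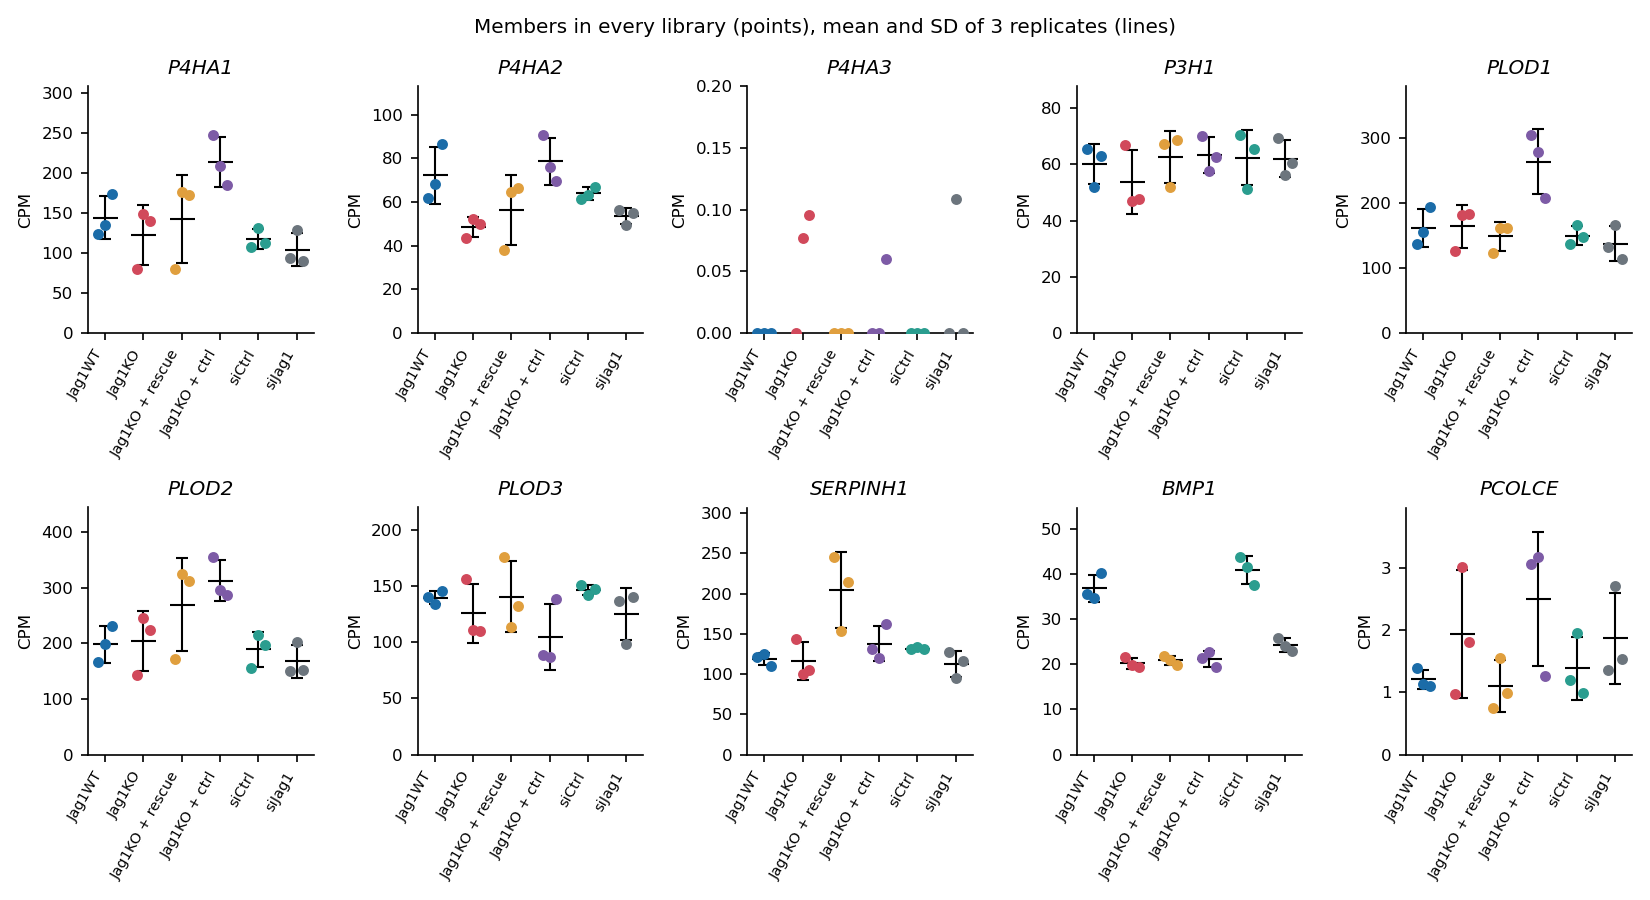
CPM of the 10 members in every library by condition. Points are libraries, and lines give the mean and SD of 3 replicates (points only for P4HA3). BMP1 splits into Jag1WT and siCtrl, at 34.7 to 43.8 CPM, and the other 4 conditions, at 19.4 to 25.9 CPM, whereas P4HA1, PLOD1 and PLOD2 have their highest means in Jag1KO + ctrl.

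PCOLCE, the enhancer of the C-proteinase, was close to the limit of 1 CPM that a gene had to exceed in 3 of the 6 libraries compared. Its levels ranged from 0.750 to 3.18 CPM (11 to 53 reads), and it passed the filter in all comparisons. PCOLCE went the other way from BMP1 in Jag1WT against Jag1KO, with 1.21 ± 0.156 against 1.94 ± 1.02 CPM, a log2 difference of -0.67 that the spread did not separate from 0 (95% interval -1.64 to 0.31, FDR 0.691). Without Jag1KO replicate 1 it was -1.02 (FDR 0.0846). In the siRNA pair the PCOLCE difference was -0.43 (FDR 0.969), and -0.0410 without siJag1 replicate 2. In the rescue pair it had 1.10 ± 0.413 against 2.50 ± 1.07 CPM (log2 difference -1.19, FDR 0.136), and the groups overlapped. The Jag1KO + ctrl libraries had 3.06, 3.18 and 1.26 CPM. Replicate 3, with the low cell-cycle mean, was the low one. Without it the FDR was 0.0195, in a fit that called 28.7% of all genes.

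Among the prolyl 4-hydroxylase subunits, P4HA2 was higher in Jag1WT than in Jag1KO in every library pair, though not beyond the threshold. It had 61.7, 68.1 and 86.5 CPM in Jag1WT and 43.3, 52.4 and 50.0 CPM in Jag1KO. The groups did not overlap, as was so for 2 of the 9 members tested and for 13.8% of all genes tested (7.22% as higher in Jag1WT). The log2 difference was 0.57 (SE 0.155, FDR 0.263). Its FDR was 0.0588 in DESeq2 and 0.0363 with the replicate block, in fits that called 1.82% and 2.19% of all genes. With the block the difference of 0.56 stayed below the fold threshold. In the siRNA pair the order was the same, with 61.3, 63.4 and 67.0 CPM in siCtrl and 56.4, 49.5 and 55.1 CPM in siJag1. The log2 difference there was 0.26 (FDR 0.969, or 0.58 with the replicate block).

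In the rescue pair the order of P4HA2 was the opposite. Jag1KO + rescue had 38.0, 64.5 and 66.4 CPM and Jag1KO + ctrl 90.5, 75.9 and 69.4 CPM. The cells with Jagged1 cDNA were lower without overlap, by a log2 difference of -0.49 (FDR 0.186). The fold change of the knockout pair exceeded that of the rescue pair by 1.08 on the log2 scale (95% interval 0.44 to 1.72, FDR 0.0867), which missed the threshold. Without Jag1KO + ctrl replicate 3 its FDR was 0.0228, in a fit that 19.8% of all genes passed. The difference of the rescue pair was -0.26 without Jag1KO + rescue replicate 1, the lowest library.

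P4HA1, the other α subunit, had 123, 135 and 174 CPM in Jag1WT and 79.4, 149 and 140 CPM in Jag1KO. The groups overlapped, with a log2 difference of 0.23 (95% interval -0.33 to 0.79, FDR 0.838) that turned to -0.01 without Jag1KO replicate 1. In siCtrl and siJag1 it had 117 ± 12.7 and 104 ± 20.7 CPM, for a log2 difference of 0.17 that was 0.36 without siJag1 replicate 2. Jag1KO + ctrl was the condition with most P4HA1 RNA, at 247, 208 and 185 CPM, all above the 79.5, 176 and 172 CPM of Jag1KO + rescue. The log2 difference was -0.58 (SE 0.294, FDR 0.208), and -0.29 without Jag1KO + rescue replicate 1.

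The lysyl hydroxylase PLOD1 shared that maximum. PLOD1 had 305, 279 and 208 CPM in Jag1KO + ctrl and 123, 162 and 161 CPM in Jag1KO + rescue, without overlap. The log2 difference of -0.83 (SE 0.188) was the largest among the hydroxylases, with an FDR of 0.104. Its FDR was below 0.05 in DESeq2 (0.00579), in the fit of all 18 libraries (0.00921) and without Jag1KO + ctrl replicate 3 (0.0062). These fits called 12.2%, 16.7% and 28.7% of all genes, in that order. In the other pairs PLOD1 overlapped, with 162 ± 29.0 CPM in Jag1WT, 164 ± 32.6 in Jag1KO, 150 ± 14.7 in siCtrl and 138 ± 26.9 in siJag1. The siRNA difference of PLOD1 was 0.13, and 0.30 without siJag1 replicate 2. The PLOD1 fold change of the knockout pair was 0.83 above that of the rescue pair (FDR 0.127), and that of the rescue pair was 0.98 below that of the siRNA pair (95% interval of the difference -1.54 to -0.42, FDR 0.107).

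PLOD2, which hydroxylates the telopeptide lysines that take part in cross-links, had 199 ± 33.2 CPM in Jag1WT, 203 ± 53.9 in Jag1KO, 270 ± 84.3 in Jag1KO + rescue, 313 ± 37.2 in Jag1KO + ctrl, 189 ± 30.9 in siCtrl and 168 ± 30.0 in siJag1. It overlapped between the groups of each pair, and the log2 differences were -0.04, -0.22 and 0.17. The first was -0.25 without Jag1KO replicate 1, and the last 0.34 without siJag1 replicate 2. Of the Jag1KO + rescue libraries, replicate 1 had 173 CPM and the other two 325 and 311, and without this library the difference of the rescue pair was 0.03. PLOD3, which also carries a glycosyltransferase activity, was the one lysyl hydroxylase with its lowest mean in Jag1KO + ctrl (105 ± 29.1 CPM) and its highest in siCtrl (146 ± 4.46). It had 151, 142 and 147 CPM in siCtrl and 137, 98.4 and 141 CPM in siJag1, without overlap, for a log2 difference of 0.24 (FDR 0.969). It was 0.0908 without siJag1 replicate 2, the low library. In the knockout pair the PLOD3 difference was 0.15, and 0.33 without Jag1KO replicate 1. The rescue pair had the largest PLOD3 difference of the 3 pairs, at 0.42 (FDR 0.249), and the groups overlapped. Without Jag1KO + ctrl replicate 3 it was 0.68 (FDR 0.0312), in a fit that called 28.7% of all genes. P3H1, which hydroxylates a few prolines in a complex with CRTAP and PPIB, was the most even of the hydroxylases, with condition means between 53.8 and 63.4 CPM. Its log2 differences in the 3 pairs were 0.15 (95% interval -0.22 to 0.53), -0.03 (-0.38 to 0.33) and 0.02 (-0.32 to 0.36). Without Jag1KO replicate 1 the first was 0.33, and without siJag1 replicate 2 the last was -0.0452.

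The chaperone SERPINH1 had its highest level in Jag1KO + rescue. These libraries held 246, 154 and 214 CPM, and the Jag1KO + ctrl libraries 132, 120 and 162 CPM. The groups overlapped because of 1 library on each side, and the log2 difference was 0.56 (95% interval 0.10 to 1.02, FDR 0.126). Leaving out Jag1KO + rescue replicate 2, the low one, gave 0.72 (FDR 0.0957). Without Jag1KO + ctrl replicate 3 the FDR was 0.0332, in a fit that called 28.7% of all genes. SERPINH1 did not pass the test in any of the 3 pairs. It had 119 ± 7.57 CPM in Jag1WT and 116 ± 23.3 in Jag1KO (log2 difference 0.02), and 132 ± 1.37 in siCtrl and 113 ± 16.3 in siJag1 (log2 difference 0.23, FDR 0.969, no overlap). Without Jag1KO replicate 1 the first difference was 0.19, and without siJag1 replicate 2 the second was 0.13.

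**Figure D3:**
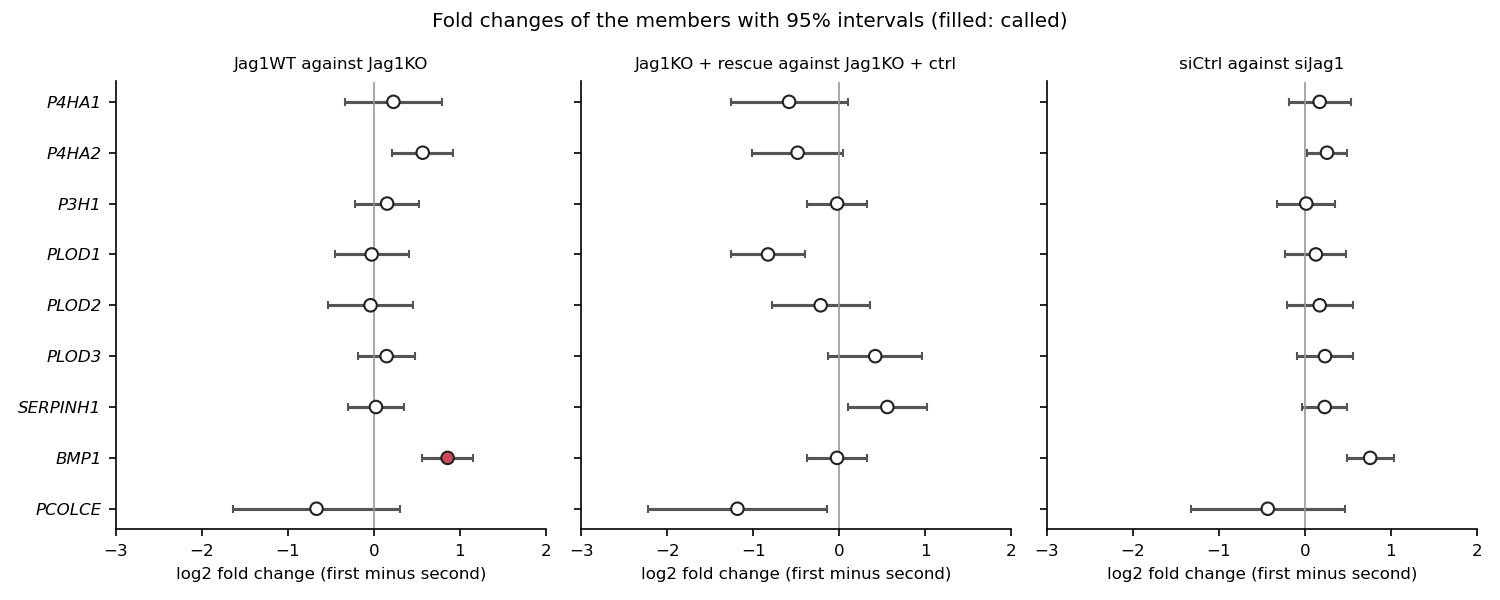
Log2 fold changes of the 9 members tested in the 3 Jagged1 pairs, first group minus second, with 95% intervals from edgeR. The filled point marks the 1 member called, BMP1 in Jag1WT against Jag1KO at 0.86, and in the rescue pair BMP1 lies at -0.03 while PLOD1 lies at -0.83.

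Counted over the members, 6 of 9 had a positive difference in Jag1WT against Jag1KO (median 0.15, against -0.01 over all genes), 2 of 9 in the rescue pair (median -0.22, against -0.00239) and 8 of 9 in the siRNA pair (median 0.17, against -0.01). In the rescue pair edgeR called 0 members, with 3 at an unadjusted p below 0.05 (PLOD1, SERPINH1 and PCOLCE), while limma called 0 and DESeq2 1. Without Jag1KO + ctrl replicate 3 the count was 4, with PLOD3 and SERPINH1 higher and PLOD1 and PCOLCE lower in Jag1KO + rescue, among 3659 genes (28.7%) called in that fit. In this pair 1 of 12894 genes (0.00776%) was called and 3965 (30.8%) had an unadjusted p below 0.05. The 3 members lower without overlap, P4HA1, P4HA2 and PLOD1, stand beside 16% of all genes that were lower without overlap there. In the siRNA pair edgeR called 0 members, with 2 (P4HA2 and BMP1) at an unadjusted p below 0.05, as were 3.83% of all genes, while limma called 0 and DESeq2 1. The 4 members higher in siCtrl without overlap, P4HA2, PLOD3, SERPINH1 and BMP1, stand beside 5.15% of all genes.

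In Jag1KO + ctrl against Jag1KO, with no change of JAG1 by design, no member passed the test. P4HA1, P4HA2, PLOD1 and PLOD2 were higher in Jag1KO + ctrl than in Jag1KO without overlap, by log2 differences of 0.78, 0.68, 0.67 and 0.61 (each with an FDR of 0.760 and an unadjusted p below 0.05), as were 6.04% of all genes tested. Without Jag1KO replicate 1 the differences of P4HA1, PLOD1 and PLOD2 were 0.55, 0.51 and 0.40. Without Jag1KO + ctrl replicate 3 those of P4HA2 and PLOD1 were 0.77 and 0.82. Of 13004 genes 0 (0%) were called in edgeR and 756 (5.81%) had an unadjusted p below 0.05. DESeq2 called 13 genes and 0 members, and limma called 0 members. The log2 difference of BMP1 was 0.05 between these groups (95% interval -0.30 to 0.40). Jag1KO + ctrl is also a group of the rescue pair, so the values of P4HA1, P4HA2 and PLOD1 in both comparisons rest on the same 3 libraries. In siCtrl against Jag1WT edgeR called 0 of 12847 genes (0%), with 177 (1.38%) at an unadjusted p below 0.05 and none of the members among these. SERPINH1 was higher in siCtrl without overlap (log2 difference 0.14), as were 3.4% of all genes.

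Within conditions several of the members moved in 2 opposite blocks. The deviations of each library from its condition mean, on the log2(CPM + 1) scale, were compared over the 18 libraries as a description. P4HA1 went with PLOD2 (r = 0.971, ρ = 0.950), PLOD1 (r = 0.877, ρ = 0.858) and P4HA2 (r = 0.810, ρ = 0.761). PLOD3 went with SERPINH1 (r = 0.882, ρ = 0.810) and against PCOLCE (r = -0.876, ρ = -0.866), and P4HA1 went against SERPINH1 (r = -0.791, ρ = -0.756) and PLOD3 (r = -0.788, ρ = -0.779). BMP1 had r between -0.283 and 0.307 with the other members. Without the 2 libraries farthest from the median of the gene named first, the r of P4HA1 with PLOD2 was 0.942, that of PLOD3 with SERPINH1 0.848, and that of P4HA1 with SERPINH1 -0.664. The genes of a library share its depth and its culture, and the 18 points are deviations from only 6 means.

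A list of 20 hypoxia-responsive genes that holds none of the members, such as CA9, NDRG1 and SLC2A1, ran along the same axis in its mean. The deviations of its mean log2(CPM + 1) had an r of 0.910 with P4HA1 (ρ = 0.895), 0.904 with PLOD1 (ρ = 0.903), 0.894 with PLOD2 (ρ = 0.899) and 0.771 with P4HA2 (ρ = 0.690). They had an r of -0.879 with PLOD3 (ρ = -0.808), -0.808 with SERPINH1 (ρ = -0.763) and -0.02 with BMP1 (ρ = 0.04). For library levels in place of deviations, r was -0.204 with SERPINH1, -0.769 with PLOD3 and 0.948 with P4HA1. The list mean was from 6.8 to 7.73 in Jag1KO + ctrl and between 5.93 and 6.91 in the other conditions. Jag1KO + ctrl thus had the highest mean of the list (7.28) together with the highest means of P4HA1, P4HA2, PLOD1 and PLOD2. The list had 0 of 20 genes called in each comparison. Of its genes, 18 had negative differences in the rescue pair and 19 positive ones in Jag1KO + ctrl against Jag1KO. VEGFA had the opposite sign in both, with log2 differences of 0.62 (FDR 0.214) and -0.42 (FDR 0.773). Its median log2 difference was 0.17 in Jag1WT against Jag1KO, -0.58 in the rescue pair, 0.15 in the siRNA pair and 0.70 in Jag1KO + ctrl against Jag1KO, and its part in the differences of the members was not tested.

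**Figure D4:**
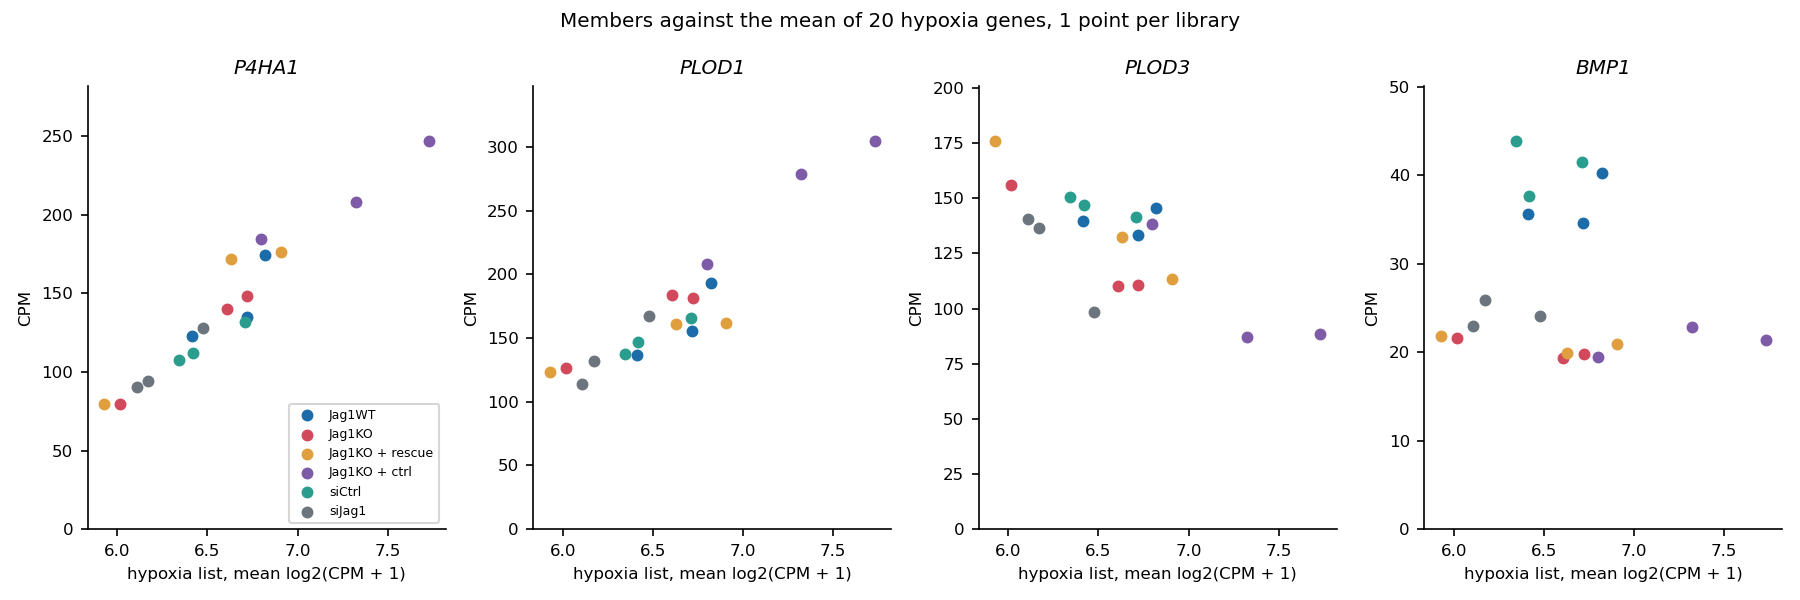
CPM of P4HA1, PLOD1, PLOD3 and BMP1 in each library against the mean log2(CPM + 1) of 20 hypoxia genes, colored by condition. P4HA1 and PLOD1 climb with the list over all conditions, and PLOD3 declines. BMP1 separates Jag1WT and siCtrl (list means 6.34 to 6.82) from the other conditions (5.93 to 7.73), so their list levels overlap only in part.

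The cell-cycle list gave a related order. Its mean deviated with PCOLCE (r = 0.849, ρ = 0.820) and PLOD1 (r = 0.756, ρ = 0.662) and against PLOD3 (r = -0.891, ρ = -0.870) and SERPINH1 (r = -0.761, ρ = -0.744), whereas its r with P4HA2 was 0.170 and with BMP1 -0.02. PLOD3 shows this library by library. The 4 lowest libraries of the series, at 86.9 to 110 CPM, hold 2 of Jag1KO + ctrl, 1 of siJag1 and 1 of Jag1KO. All 4 had a list mean of at least 6.16. The next were Jag1KO replicate 2 (111 CPM) and Jag1KO + rescue replicate 2 (114 CPM), with list means of 5.90 and 5.30. All 15 cell-cycle genes had negative differences in each of the 3 pairs, with medians of -1.25, -1.35 and -0.71, but only 1 of them was called, in Jag1WT against Jag1KO. In each pair the list means of the groups overlapped, and in the siRNA pair siJag1 replicates 1 and 3 (4.49 and 4.63) lay within the siCtrl range of 4.42 to 5.41, with replicate 2 at 6.65. Its part in the differences of PLOD3 and PCOLCE was not tested. A list of 14 genes of folding and stress in the endoplasmic reticulum deviated with PLOD3 (r = 0.797) and SERPINH1 (r = 0.660) and against PCOLCE (r = -0.753). All 14 had positive differences in the rescue pair (median 0.56), against 9 in Jag1WT against Jag1KO and 12 in the siRNA pair, and 0 were called. The part of this list was not tested either.

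**Figure D5:**
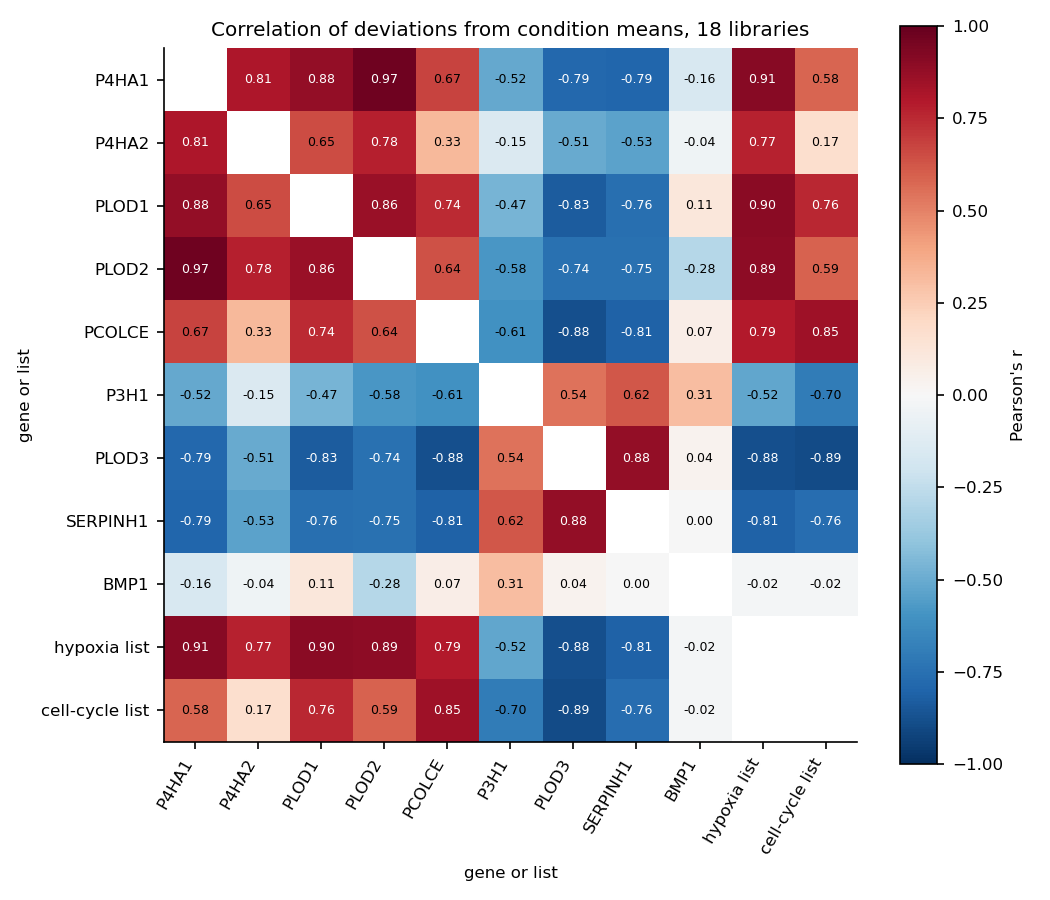
Pearson's r between deviations from the condition means for 9 members and 2 gene lists over 18 libraries, from -1 (blue) to 1 (red). P4HA1, PLOD1, PLOD2 and PCOLCE form a block that runs with the hypoxia list and against PLOD3 and SERPINH1. P4HA2 is tied to this block less evenly, with r of 0.327 with PCOLCE and -0.505 with PLOD3. BMP1 has r between -0.283 and 0.307 with the other members and -0.02 with both lists.

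Because P4HA1, P4HA2, PLOD1 and PLOD2 varied together, the 250 bases before 1 listed start site of each are shown. Matches to ACGTG, the core of the hypoxia response element, or its reverse complement CACGT are in capitals. The windows are read 5′ to 3′ on the strand of each gene, from RefSeq (GRCh38.p14), which listed a window for 8 of the 10 members. P4HA1 is on the minus strand at chr10:73096867-73097116, PLOD2 on the minus strand at chr3:146161185-146161434, P4HA2 on the minus strand at chr5:132227092-132227341 and PLOD1 on the plus strand at chr1:11934467-11934716. In GENCODE release 44 the upstream ends of these genes are at 73096974, 146163725, 132295315 and 11934205, in the same order. The windows of PLOD2, P4HA2 and PLOD1 thus lie inside the gene spans, and that of P4HA1 in part. Other start sites of these genes were not searched.
P4HA1: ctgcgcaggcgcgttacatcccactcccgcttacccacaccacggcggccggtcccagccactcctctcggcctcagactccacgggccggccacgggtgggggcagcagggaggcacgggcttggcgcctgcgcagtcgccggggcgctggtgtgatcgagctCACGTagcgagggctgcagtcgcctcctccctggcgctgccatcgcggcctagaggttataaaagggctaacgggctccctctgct
PLOD2: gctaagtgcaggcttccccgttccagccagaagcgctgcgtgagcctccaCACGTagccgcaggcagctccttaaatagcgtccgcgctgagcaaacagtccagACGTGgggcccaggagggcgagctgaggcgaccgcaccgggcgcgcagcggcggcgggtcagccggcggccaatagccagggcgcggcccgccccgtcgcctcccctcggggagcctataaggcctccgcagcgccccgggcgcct
P4HA2: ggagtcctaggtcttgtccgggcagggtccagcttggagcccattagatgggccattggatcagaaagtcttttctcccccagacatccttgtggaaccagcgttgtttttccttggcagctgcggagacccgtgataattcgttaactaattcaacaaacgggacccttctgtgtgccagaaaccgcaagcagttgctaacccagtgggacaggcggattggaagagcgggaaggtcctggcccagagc
PLOD1: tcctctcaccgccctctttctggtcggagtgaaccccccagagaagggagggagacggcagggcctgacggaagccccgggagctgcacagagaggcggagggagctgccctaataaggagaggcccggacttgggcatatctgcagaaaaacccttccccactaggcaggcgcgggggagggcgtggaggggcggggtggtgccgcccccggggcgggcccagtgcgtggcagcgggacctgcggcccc

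P4HA1 holds 1 such match, 81 bases from the end of its window, and PLOD2 holds 2, whereas the windows of P4HA2 and PLOD1 hold none. Of 35116 promoter windows of the same length in the table, 18.5% hold at least 1 match. SERPINH1 has 1 match in 1 of its 2 windows, and PLOD3, P3H1 and PCOLCE have none. GGGAA, the core of the binding site of the Notch effector RBPJ, or TTCCC is in the windows of P4HA2, PLOD1, PLOD2, PLOD3 and PCOLCE, and in 59% of all windows. These letters describe the windows only.

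The other genes of collagen biosynthesis, a list of 30 with 22 or 23 above the filter, gave 1 call in the 3 pairs. CREB3L1, a transcription factor of the endoplasmic reticulum membrane that is known to drive collagen genes, had 58.2 ± 4.54 CPM in Jag1WT and 28.3 ± 5.32 in Jag1KO (log2 difference 1.03, SE 0.157, FDR 0.0322). Unlike BMP1, CREB3L1 was higher in Jag1KO + rescue (52.5 ± 7.27 CPM) than in Jag1KO + ctrl (38.3 ± 4.09), with a log2 difference of 0.45 that did not pass the test (FDR 0.123). In siCtrl and siJag1 CREB3L1 had 65.7 ± 3.53 and 43.4 ± 10.2 CPM (log2 difference 0.61, FDR 0.969). The median log2 difference of the list was 0.04, 0.02 and 0.04 in the 3 pairs. P4HB, the β subunit that prolyl 4-hydroxylases need, had 1306 ± 108 CPM in Jag1WT and 1180 ± 238 in Jag1KO (log2 difference 0.14, FDR 0.844). The P3H1 partners PPIB (469 ± 12.4 against 392 ± 81.6 CPM) and CRTAP (155 ± 4.88 against 169 ± 22.3 CPM) did not pass the test there either, with FDRs of 0.664 and 0.808.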

How the data were processed

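Stranded mRNA libraries were sequenced from 18 cultures. Per the labels, reads were placed on hg38, and the submitters' processing notes name featureCounts, MultiQC 1.5, R 3.6.1 and edgeR 3.28.0. The aligner is not given in the sources used here. The deposited counts are whole reads per gene without normalization (21411 genes by Entrez number and symbol, 292 without a symbol). The deposited CPM, recorded as a signal because the columns do not share a fixed total after the authors' TMM scaling, gave the levels. The RPKM deposited by the authors served only for gene lengths, and 3 of its columns, spelled siJaq1, fit no label and were left out.

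In each comparison, genes that exceeded 1 CPM in 3 or more of its 6 libraries were tested on the counts with edgeR 4.0.16 in R 4.3.3 (TMM, quasi-likelihood F test, Benjamini-Hochberg FDR), and called at an FDR below 0.05 and a fold above 1.5. The SE is the absolute log2 fold change over the square root of F. Differences between comparisons were interaction contrasts over 12 libraries (1 CPM in at least 6), with an FDR below 0.05. Scripts were tested on simulated data. Alternatives were limma 3.58.1 on log2(CPM + 1), DESeq2 1.42.0, RLE size factors, no filter, a replicate block, a fit of 18 libraries and leaving out each library. A count of 0 was taken to allow 3 reads, for counting error only.

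Replicate numbers were taken to pair libraries where the deviations of same-numbered libraries, over 12803 genes, correlated above 0.1 in every pair. This held for siCtrl and siJag1 (0.543, 0.523 and 0.263) and for siCtrl and Jag1WT (0.597, 0.714 and 0.213), and in no other comparison. The main tests did not use the pairing, which entered only as the replicate block among the alternatives.

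The members and gene lists were chosen with earlier results of these data known. Text names all 10 members, JAG1, called biosynthesis genes, P4HB, PPIB, CRTAP and the 3 genes most like a called member, and other named genes are examples of lists or markers.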

Additional observations from a re-analysis of the deposited data

Results flagged for a closer look

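The fold change of BMP1 differed between 2 pairs in the test of the difference itself. In Jag1WT against Jag1KO the log2 difference was 0.86 and in Jag1KO + rescue against Jag1KO + ctrl it was -0.03. The interaction contrast of edgeR gave 0.91 (95% interval 0.53 to 1.29, FDR 0.0486). This is close to the threshold. The FDR was above 0.05 with a replicate block, with RLE size factors and without the filter. It was also above 0.05 in 11 of 12 fits that left out 1 library, up to 0.173. The 3 Jag1WT libraries were all above the 3 Jag1KO libraries, and the groups of the rescue pair overlapped. Groups of 3 were not tested for outlying libraries.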

How the results depend on the processing

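Of the results for single members in the other settings, 223 kept their direction and their side of the threshold, 3 lost and 4 gained the call, and 2 changed sign (in the rescue pair without the filter, P3H1 at 0.00336 and BMP1 at 0.00197). In fits that left out 1 library, 243 kept both, 16 lost and 8 gained the call, and 21 changed sign. These counts hold all members tested in the 3 pairs. From the 2 further comparisons and the differences between pairs they hold BMP1 and only the clearer results. Those had an unadjusted p below 0.05 or, in the 2 further comparisons, groups without overlap. The counts of genes called moved more. Jag1WT against Jag1KO gave 283 with the replicate block, 162 without the filter, 235 in DESeq2 and 148 in the fit of 18 libraries, against 91. The rescue pair gave 3 with the block, 2 without the filter, 2 in limma, 1572 in DESeq2 and 2156 in the fit of 18 libraries, against 1, with 1 member called in DESeq2 and in the fit of 18 libraries (PLOD1). The siRNA pair gave 4 with the block, 8 without the filter, 0 in limma, 25 in DESeq2 and 7 in the fit of 18 libraries, against 2, with 1 member (BMP1) called in DESeq2 and in the fit of 18 libraries. For Jag1KO + ctrl against Jag1KO DESeq2 called 13 and the fit of 18 libraries 1, and for siCtrl against Jag1WT the block gave 1, each against 0. The 1 member that passed the test of the difference between the knockout and rescue pairs, BMP1, became 0 with the block (log2 difference 0.90), with RLE size factors (0.89) and without the filter (0.88). The cause of these moves was not tested. The replicate block changed no other call of a member.

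Single libraries decided the counts. When 1 was left out, Jag1WT against Jag1KO gave between 8 genes (without Jag1WT replicate 3) and 935 (without Jag1KO replicate 1), with 0 to 1 members. The rescue pair gave 0 to 3659 genes and 0 to 4 members, the highest of each without Jag1KO + ctrl replicate 3, the siRNA pair 0 to 4 genes, and Jag1KO + ctrl against Jag1KO 0 to 302. The members that passed the test of the difference numbered 0 to 3 between the knockout and rescue pairs and 0 to 2 between the rescue and siRNA pairs, highest without Jag1KO + ctrl replicate 3, where 2537 (19.8%) and 1923 (15.1%) of all genes passed. Fits that leave out a library changed the sign of small differences. In Jag1WT against Jag1KO these ranged from -0.0128 to 0.39 for P4HA1, -0.19 to 0.0899 for PLOD1, -0.25 to 0.11 for PLOD2 and -0.0718 to 0.19 for SERPINH1. In the rescue pair they ranged from -0.0924 to 0.0789 for P3H1, -0.39 to 0.0285 for PLOD2 and -0.0829 to 0.0299 for BMP1. In the siRNA pair P3H1 ranged from -0.0841 to 0.15, and in Jag1KO + ctrl against Jag1KO BMP1 ranged from -0.0051 to 0.11.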
